A study of Arabidopsis thaliana with 3 samples.

Results

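The sites described here are the insertions and deletions (indels) of Arabidopsis thaliana chromosomes 1, 2, 3 and 5 in a bulked segregant analysis of the thm1 mutation. They were chosen by class alone: every listed site on these chromosomes at which the reference or the alternative allele is longer than 1 base. That gave 248 indels of 1990 sites in the table, with 72 on the first of these chromosomes, 50 on the second and 63 each on the third and the fifth. In bulked segregant analysis the plants of a segregating family are sorted by phenotype into pools, and the DNA of each pool is sequenced as a whole. Leaf DNA of 3 libraries was sequenced: WTa, with the genotype WT, a thm1_like pool, labelled as thm1 mutant, and a WTa_like pool, labelled as WT. With 1 library per group, replicates are lacking throughout. The sources used here give neither the age nor the number of the plants, nor the cross or the mutagen.

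At a variant that is not linked to the trait, both pools are drawn from the same family and carry an allele at like frequency, whereas near the causal gene the mutant pool approaches fixation of the mutant parent's allele. Small indels are a class of variant of their own. Many lie in runs of 1 base or in short repeats, where the copying strand can slip and gain or lose a repeat unit, and reads that end inside such a run do not show its length. A chemical mutagen that alters single bases adds few of them. In a coding sequence an indel whose length is not a multiple of 3 shifts the reading frame, whereas outside it the same change may alter spacing only.

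Each change was read from the allele called in WTa to the other allele. By that reading 103 sites were insertions and 145 were deletions. The index of a pool is the share of its reads with the other allele, and delta is how far the index of the thm1_like pool lies above that of the WTa_like pool, all recomputed from read counts. Short changes of A and T made up most of the sites. Of the 248, 140 added or removed 1 base and 96 added or removed 2 bases, and 227 (91.5%) added or removed A and T only. The unit was T at 70 sites, A at 61, AT at 60 and TA at 24. Single G or C bases accounted for 9 sites, other pairs of bases for 12 and longer units for 12. The alleles below show the main kinds and the long exceptions. They are written as in the table on the TAIR10 build, forward strand, with the shared first base in lower case and the bases gained or lost in capitals. All 248 indels were written this way, and all stood at the leftmost of their equal placements.
WTa allele at 1078 of chromosome 2, of which the other allele keeps the g: gGTCGACCGGGTCCGAGAATTC
WTa allele at 13185662 of chromosome 2, in SKdZeta: cAGAG
WTa allele at 5769083 of chromosome 2, in ALD1: cTT
WTa allele at 4063723 of chromosome 5, in MYB46: cTA
WTa allele at 6275674 of chromosome 5, beside SPL7: tA
Other allele at 3897056 of chromosome 1, near AT1G11593: cAT
Other allele at 7318748 of chromosome 5, in AT5G22090: gT
Other allele at 17917988 of chromosome 5, in CML43: cT
Other allele at 12168192 of chromosome 3, beside AT3G30580: gACGA
Other allele at 13262084 of chromosome 5: cAAAA

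Depth limited what a single indel could show. The thm1_like pool had 7 to 72 reads at an indel (median 22), the WTa_like pool 7 to 76 (median 19) and WTa 1 to 31 (median 10). Over all 1990 sites the medians were 24, 23 and 12 reads. No listed site had under 7 reads in either pool, and at every site the higher index was 0.3 or more when rounded as deposited. A site that reached 0.3 in only one pool therefore had to differ between the pools, and sites with a low index in both are not analysed here.

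The indels were mostly lower in the thm1_like pool. The thm1_like index ranged from 0 to 1.00, with a median of 0.234 and a mean of 0.250 (SD 0.191 over sites). The WTa_like index ranged from 0 to 0.917, with a median of 0.379 and a mean of 0.378 (SD 0.156). Delta was below 0 at 172 sites, above 0 at 75 and 0 at 1, with a mean of -0.13 (SD 0.256) and a median of -0.19. Over all listed sites the median delta was 0.038. Summed over the indels, 1490 of 6140 thm1_like reads carried the other allele (24.3%, exact Clopper-Pearson 95% interval 23.2 to 25.4) against 1979 of 5311 WTa_like reads (37.3%, 36.0 to 38.6). Sites that are linked vary together, and the intervals cover counting error only.

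**Figure D1:**
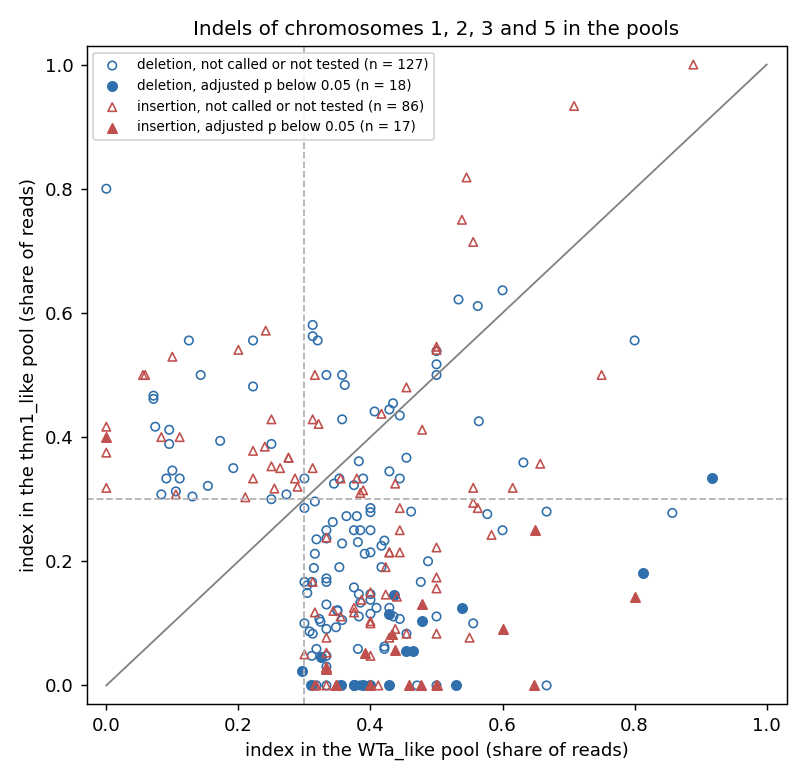
Index of each of the 248 indels in the WTa_like pool (horizontal axis) and in the thm1_like pool (vertical axis), as shares of reads; circles are deletions, triangles insertions, filled where the adjusted p was below 0.05. Dashed lines mark the index of 0.3 and the solid line equal indices: the 148 sites listed through the WTa_like pool alone fill the lower right, and the 34 filled points low in the plot are those called lower in the thm1_like pool.

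The way the table was listed is part of this pattern, as the plot of both indices shows. An index of 0.3 was reached in the WTa_like pool alone at 148 indels (59.7%), in the thm1_like pool alone at 46 (18.5%) and in both pools at 54 (21.8%). The mean delta was -0.29 over the first set and 0.25 over the second, which their choice fixes in sign. Over the 54 indels at 0.3 or more in both pools the mean delta was -0.0011. Among the 1189 C-to-T and G-to-A sites of the same chromosomes the shares were 18.9% in the WTa_like pool alone, 27.0% in the thm1_like pool alone and 54.1% in both. Among the 252 other substitutions they were 31.7%, 23.4% and 44.8%. The 61 indels of chromosome 4 were split like those described here, with 55.7% in the WTa_like pool alone. No test was made of these splits, since neighbouring sites are linked and each pool is 1 library.

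No read of the other allele was present in the thm1_like pool at 29 of the 248 indels (11.7%), at depths of 7 to 35 reads. The same held at 6 of the 1189 C-to-T and G-to-A sites (0.505%) and at 1 of the 252 other substitutions. It also held at 6 of the 61 indels of chromosome 4 (9.84%). In the WTa_like pool 5 of the 248 indels had no such read (2.02%), against 8 C-to-T and G-to-A sites and 6 other substitutions. A site with no such read in a pool was necessarily listed through the other pool alone. The WTa_like pool alone listed 59.7% of the indels and 18.9% of the C-to-T and G-to-A sites. For the thm1_like pool alone the shares were 18.5% and 27.0%. The listing thus bears on these counts, and nothing is read from their contrast. As a rough limit, a count of 0 was taken to allow up to 3 reads. With no such read among 35, the share may by this rule still be as high as 8.57%, and among 7 as high as 42.9%. At the other end, 1 indel had only reads of the other allele in the thm1_like pool. It was a gain of TA at 9060541 of chromosome 5, 578 bp from AT5G25950 and named after its values were seen, with 12 of 12 thm1_like and 16 of 18 WTa_like reads, so the allele was frequent in both pools. WTa, with 5 to 9 reads there, was called with the alternative allele, so the gained allele is the reference allele.

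Insertions and deletions had like averages. The 103 insertions averaged an index of 0.262 in the thm1_like pool (SD 0.211) and 0.386 in the WTa_like pool (SD 0.168), a mean delta of -0.12 (SD 0.271) and a median delta of -0.23. The 145 deletions had 0.241 (SD 0.175) and 0.372 (SD 0.148), a mean delta of -0.13 (SD 0.245) and a median of -0.17. The difference between the means is far smaller than the spread over sites within either type, and it was not tested.

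The kinds of unit differed more. The 131 sites with 1 A or T gained or lost averaged 0.200 in the thm1_like pool (SD 0.162) and 0.372 in the WTa_like pool (SD 0.148), and delta was below 0 at 100 of them (mean -0.17, SD 0.257). This held alike for gains of A (mean -0.18, 34 sites), losses of A (-0.15, 27 sites), gains of T (-0.19, 30 sites) and losses of T (-0.17, 40 sites). The 84 sites with AT or TA gained or lost had a mean of 0.314 (SD 0.212) against 0.388 (SD 0.177), and delta was below 0 at 51 (mean -0.074, SD 0.249). Within this kind, the 28 insertions had a mean delta of -0.037 and a median of 0.023. The 56 deletions had -0.093 and -0.13. All these differences are smaller than the SD over sites, which describes single sites and not the error of a mean. No test was made between kinds. The kinds also differed in how they were listed. The WTa_like pool alone reached 0.3 at 67.2% of the 1 A or T sites and 50% of the AT or TA sites. That listing fixed the sign of delta there. At 0.3 or more in both pools the mean delta was -0.021 (20 sites) and -0.0095 (25 sites).

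**Figure D2:**
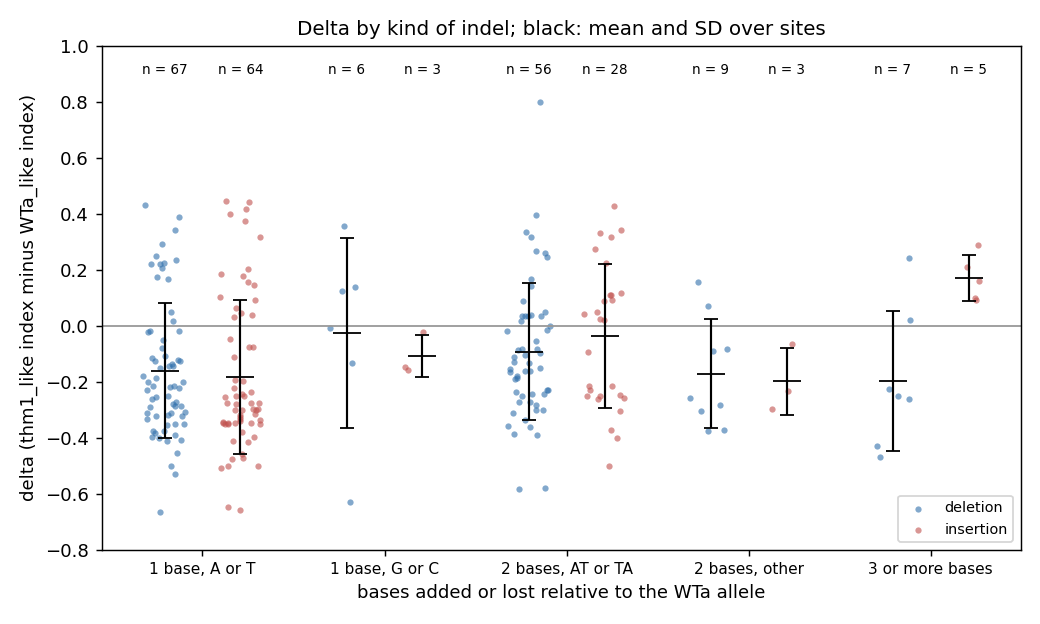
Delta of each indel by kind of unit and type (blue deletions, red insertions); black bars are the mean and SD over sites and n is the number of sites. The means lie between -0.20 and 0.17, and the 5 insertions of 3 or more bases are the only column with no site below 0. Of these 5, 2 were listed through the thm1_like pool alone, which fixed their sign.

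Units of 3 or more bases were rare. The 5 insertions all had a delta above 0 (0.091 to 0.29, mean 0.17, SD 0.0825), as did 2 of the 7 deletions. Of these insertions 2 reached 0.3 in the thm1_like pool alone, which fixed their sign, and 3 reached it in both pools. Type and sign both rest on the allele called in WTa: read from the reference allele, the gain of CTT at 12969249 of chromosome 3 becomes a loss at -0.21 and the loss of ATAT in AT2G08986 a gain at -0.24. At 17142929 of chromosome 1, 1158 bp from AT1G45223, a gain of AAA was carried by 10 of 25 thm1_like reads and 2 of 18 WTa_like reads. At 13262084 of chromosome 5 a gain of AAAA was carried by 22 of 60 against 16 of 58 reads. The same counts were listed for a gain of A 16 bp before it, so this pair of sites cannot be taken as independent. The gain of ACGA at 12168192 of chromosome 3, 11 bp from AT3G30580, had 5 of 7 against 5 of 9 reads. The gain of CTT at 12969249 of chromosome 3, within the bounds of the long non-coding RNA genes AT3G06225 and AT3G06235, had 6 of 8 against 7 of 13. Both of the last had too few reads to be tested. The fifth, a gain of CTA at 15649724 of chromosome 3 named after its values were seen, had 8 of 19 against 9 of 28 reads. It belongs to a group of 3 indels within 16 bp, whose deltas lay between 0.10 and 0.14. None of the 5 was called by the test of the pools described further on.

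Of the 7 deletions of 3 or more bases, 5 had a delta below 0. These 5 reached 0.3 in the WTa_like pool alone, so the listing fixed their sign. The longest, a loss of 21 bases printed above, lay close to the start of chromosome 2 within the bounds of AT2G01008. It had 25 of 55 thm1_like reads and 33 of 76 WTa_like reads with the shorter allele, a delta of 0.020 (adjusted p = 0.965, Fisher's exact test), and 76 reads is the highest WTa_like depth of the 248 sites. A loss of AGAG in SKdZeta (AT2G30980), a shaggy-like kinase gene with the synonym BIN2-LIKE 1, had 0 of 16 thm1_like and 6 of 14 WTa_like reads (exact adjusted p = 0.0433, delta -0.43). A loss of TATA at 11387088 of chromosome 5 had 0 of 9 against 8 of 17 reads and was not tested. A loss of ATAT in AT2G08986 had 4 of 12 thm1_like and 1 of 11 WTa_like reads (exact adjusted p = 0.559, delta 0.24).

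The comparison of the pools asked which sites separate thm1_like from WTa_like plants. At each site with at least 10 reads in both pools, a two-sided Fisher's exact test was run on the reads, and p-values were adjusted by the Benjamini-Hochberg method over all 1817 tested sites of the table. The test compares these 2 libraries, not the conditions. Of the 248 indels 216 were tested. Lower in the thm1_like pool were 34 (15.7% of those tested), where 4.40% of all tested sites were called lower. Higher was 1, where 8.20% of all tested sites were called higher. The other 181 tested indels did not pass, and 32 had too few reads. Among the 1096 tested C-to-T and G-to-A sites of these chromosomes 33 were lower and 64 higher, and among 237 tested other substitutions 2 were lower and 5 higher. Among the 58 tested indels of chromosome 4, 8 were lower (13.8%) and 2 higher (3.45%), so a high share of lower calls was not particular to these chromosomes. The requirement of an index of 0.3 in a pool bears on these counts. It was reached in the WTa_like pool alone by 130 of the 216 tested indels and by 33 of the 34 called lower (97.1%), so the listing fixed the direction of those 33. Among indels at 0.3 or more in both pools 1 was called lower. The sites named below are therefore given as a description of their reads.

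The 34 lower indels comprised 18 deletions and 16 insertions, and 25 of them were a gain or loss of 1 A or T. Of the tested sites of that kind 25 of 118 were called lower, against 6 of 71 with AT or TA. Chromosome 1 held 13 of them among 64 tested indels and chromosome 3 held 4 among 53. There were 7 among 43 on chromosome 2, and on chromosome 5 there were 10 among 56. Their thm1_like index ran from 0 to 0.333 with a median of 0.029, and 15 of them had no thm1_like read with the other allele. Their WTa_like index ran from 0.296 to 0.917 with a median of 0.435. Delta ran from -0.66 to -0.27. These ranges follow from the call itself and are given as a description.

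**Figure D3:**
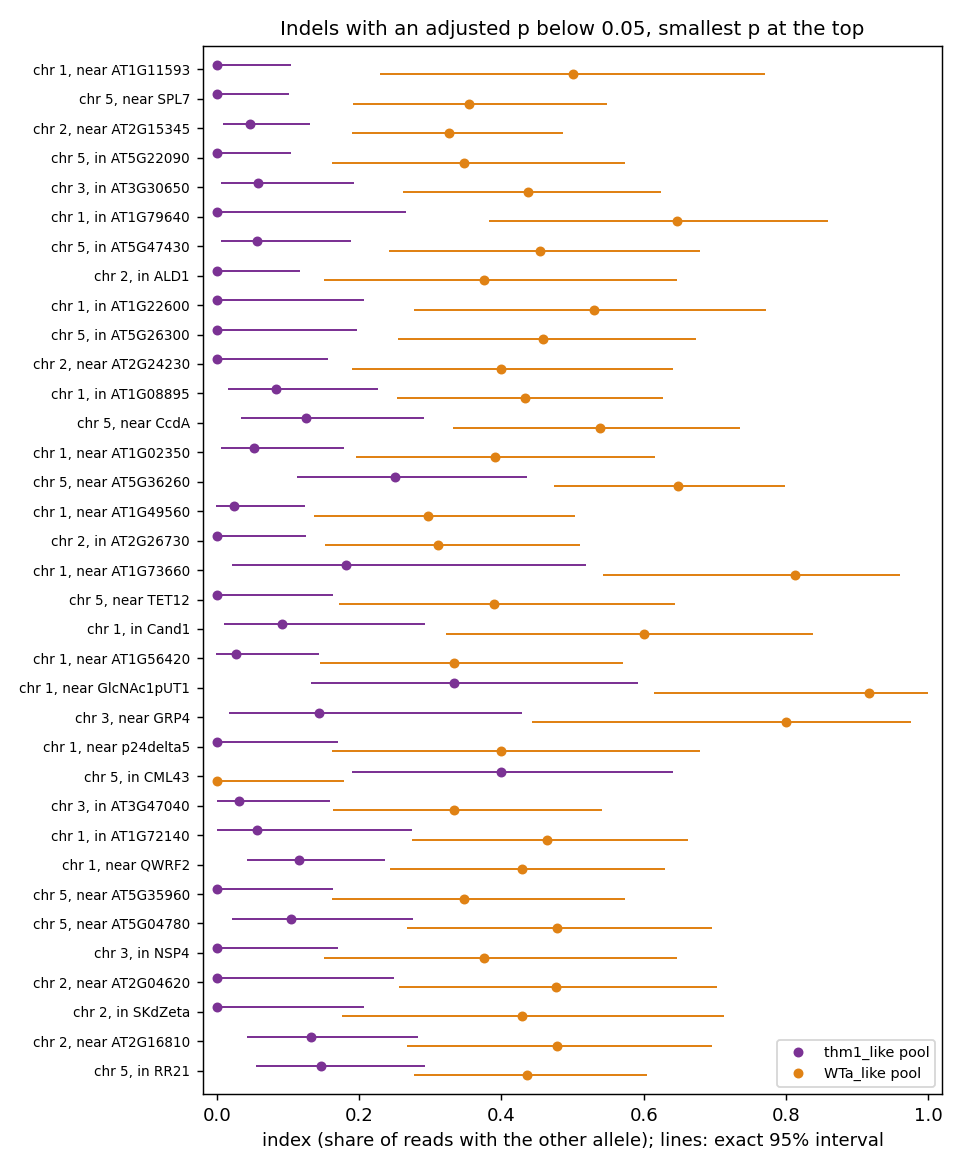
Index of the thm1_like pool (purple) and of the WTa_like pool (orange) at the 35 indels with an adjusted p below 0.05, with exact 95% binomial intervals; each line is a site, named by its chromosome and the gene that holds it or the nearest protein-coding gene. At 34 sites the purple point lies at 0.333 or less and to the left of the orange one, and the site in CML43 is the exception.

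The smallest adjusted p of an indel belonged to a gain of AT at 3897056 of chromosome 1, 946 bp from AT1G11593, with 0 of 34 thm1_like reads and 7 of 14 WTa_like reads (delta -0.50, adjusted p = 0.00197, exact test). The next was a loss of A at 6275674 of chromosome 5, 221 bp from SPL7, a transcription factor gene of the response to copper deficiency, with 0 of 35 thm1_like and 11 of 31 WTa_like reads (exact adjusted p = 0.00298, delta -0.35). A loss of T at 6685549 of chromosome 2, 480 bp from AT2G15345, had 3 of 65 thm1_like and 14 of 43 WTa_like reads (exact adjusted p = 0.00562, delta -0.28). At the sites near AT1G11593 and SPL7 no thm1_like read carried the other allele. Shares of up to 8.82% and 8.57% remain possible if a count of 0 allows 3 reads.

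Within protein-coding bounds, a gain of T in AT5G22090 had 0 of 34 thm1_like and 8 of 23 WTa_like reads (exact adjusted p = 0.00749, delta -0.35). A gain of A in AT1G79640 at 29966624 of chromosome 1 had 0 of 12 thm1_like and 11 of 17 WTa_like reads (exact adjusted p = 0.00887, delta -0.65). A loss of A in AT5G47430 at 19235785 of chromosome 5 had 2 of 36 thm1_like and 10 of 22 WTa_like reads (exact adjusted p = 0.0100, delta -0.40). The largest difference of these 3 thus rested on the fewest reads.

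A loss of TT in ALD1 (AT2G13810), an aminotransferase gene of pipecolic acid synthesis in plant immunity, had 0 of 30 thm1_like and 6 of 16 WTa_like reads (exact adjusted p = 0.0147, delta -0.38). A loss of A in AT1G22600 at 7987747 of chromosome 1 had 0 of 16 thm1_like and 9 of 17 WTa_like reads (exact adjusted p = 0.0155, delta -0.53), and WTa had only 3 reads there. A gain of T in AT5G26300 at 9230163 of chromosome 5 had 0 of 17 thm1_like and 11 of 24 WTa_like reads (exact adjusted p = 0.0156, delta -0.46). A loss of T in AT2G26730 at 11391663 of chromosome 2 had 0 of 28 thm1_like and 9 of 29 WTa_like reads (exact adjusted p = 0.0239, delta -0.31). None of these 4 had a thm1_like read of the other allele. If a count of 0 allows 3 reads, the share may be as high as 18.8% with 16 reads and 10.7% with 28.

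Other calls lay outside protein-coding bounds. A gain of T at 12201684 of chromosome 3, in the pseudogene AT3G30650, had 2 of 35 thm1_like and 14 of 32 WTa_like reads (exact adjusted p = 0.00870, delta -0.38). A loss of A at 10306824 of chromosome 2, 2012 bp from AT2G24230, had 0 of 22 thm1_like and 8 of 20 WTa_like reads (exact adjusted p = 0.0172, delta -0.40). A gain of A at 4584430 of chromosome 1, within the non-coding RNA gene AT1G08895, had 3 of 36 thm1_like and 13 of 30 WTa_like reads (exact adjusted p = 0.0193, delta -0.35). A gain of A at 14107793 of chromosome 5, 421 bp from AT5G35960, had 0 of 21 thm1_like and 8 of 23 WTa_like reads (exact adjusted p = 0.0370, delta -0.35).

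The other indels called lower in protein-coding bounds, named after their values were seen, lay in Cand1 (delta -0.51), which the gene table lists as a candidate G-protein coupled receptor, AT1G72140 (-0.41), NSP4 (-0.38), AT3G47040 (-0.30) and RR21 (-0.29). NSP4 encodes a nitrile specifier protein of glucosinolate breakdown, and RR21 a response regulator, a family that acts in cytokinin signalling. The site in RR21 had an adjusted p of 0.0497 by Fisher's exact test, close to the threshold of 0.05.

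The indel called higher was a gain of T in CML43 (AT5G44460), a calmodulin-like gene whose protein family binds calcium. It was carried by 8 of 20 thm1_like reads and by 0 of 19 WTa_like reads (exact adjusted p = 0.0331, delta 0.40). With 0 of 19 reads the share may be as high as 15.8% if a count of 0 allows 3 reads, and the exact 95% interval reached 0.1765. The exact 95% interval of the thm1_like index reached from 0.191 to 0.639.

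Among the 32 indels with too few reads for the test, delta reached from -0.67 to 0.80. The highest was a loss of TA in MYB46 (AT5G12870), which encodes a transcription factor of the secondary cell wall, found in 12 of 15 thm1_like reads and none of 7 WTa_like reads. WTa had 1 read there, of the alternative allele, so the sign of this delta rests on that read. A loss of A at 5759717 of chromosome 2, 2364 bp from the receptor kinase gene SERK5, had 5 of 9 against 1 of 8 reads (delta 0.43), and a gain of T in ADK1 (AT1G03930) had 5 of 12 against 0 of 9 (0.42). The lowest were a loss of A at 8620923 of chromosome 1, 259 bp from AT1G24300, with 0 of 8 against 6 of 9 reads (-0.67), and a loss of AT at 26215237 of chromosome 1, 772 bp from TCP15, with 5 of 18 against 6 of 7 (-0.58). A loss of A at 11646480 of chromosome 2 had 0 of 7 against 5 of 10 (-0.50). With 7 to 10 reads in a pool, such a delta is known only coarsely.

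The AT and TA indels differed in depth as well as in index. At the 84 AT or TA indels the thm1_like pool had 25.5 reads on average (SD 8.94 over sites), the WTa_like pool 16.8 (SD 6.86) and WTa 7.18 (SD 4.88). The thm1_like depth was above the WTa_like depth at 70 of the 84 (83.3%), and summed reads stood in a ratio of 1.52. At the 131 indels of 1 A or T the depths were 25.3, 24.1 and 12.5 reads, the thm1_like depth was higher at 73 (55.7%), and the ratio was 1.05. The C-to-T and G-to-A sites also had a ratio of 1.05, with 54.7% deeper in the thm1_like pool. On each of the 4 chromosomes the AT or TA indels had a ratio above that, from 1.35 on chromosome 5 to 1.60 on chromosome 1. It was 1.52 outside gene bounds (66 sites) and 1.53 in protein-coding bounds (17 sites). The 21 AT or TA indels of chromosome 4 had 1.24. The difference in depth between the libraries thus moved with the bases gained or lost, and its part in the index was not tested.

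**Figure D4:**
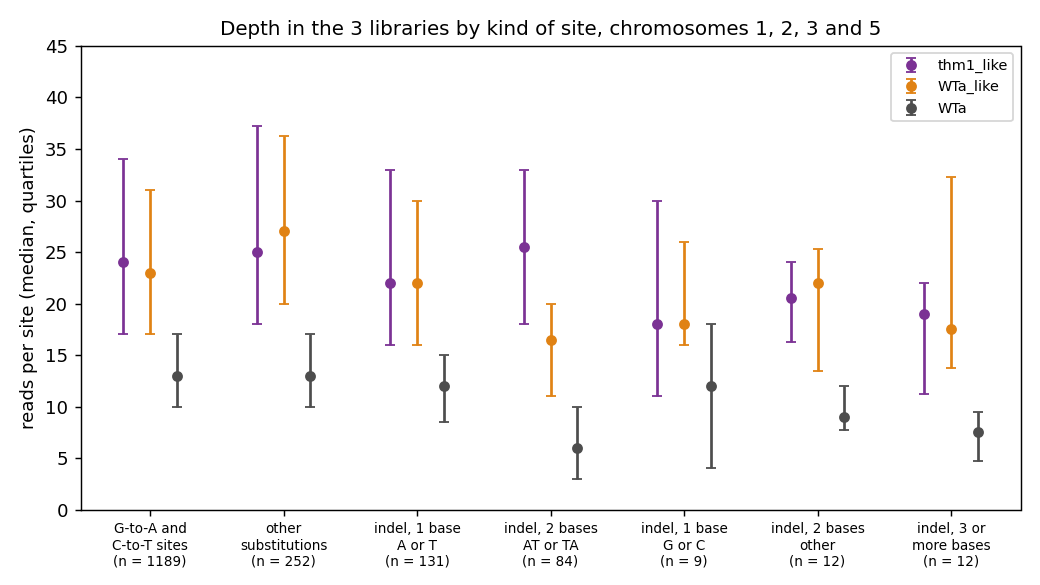
Median depth with quartiles in reads per site for the thm1_like pool (purple), the WTa_like pool (orange) and WTa (grey) by kind of site, with n the number of sites. The pools overlap closely at substitutions and at indels of 1 A or T, whereas at AT or TA indels the medians are 25.5 reads in the thm1_like pool, 16.5 in the WTa_like pool and 6 in WTa.

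The allele of WTa, from which each change is read, rested on few reads at many indels. WTa had fewer than 5 reads at 46 of the 248 indels, 32 of them AT or TA sites. It had 1 read at 8, and these are all the sites with 1 WTa read in the table. WTa was called with the alternative allele at 51 indels (20.6%), against 3 of the 1189 C-to-T and G-to-A sites (0.252%) and 13 of the 252 other substitutions (5.16%). Of the 61 indels of chromosome 4, 10 had such a call (16.4%). At those 51 indels the other allele is the reference allele. They averaged 0.327 in the thm1_like pool (SD 0.213) and 0.398 in the WTa_like pool (SD 0.168), with a median WTa depth of 6 reads. The 197 indels at which WTa carried the reference allele had means of 0.229 (SD 0.180) and 0.373 (SD 0.153), with a median WTa depth of 11 reads.

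Delta below 0 occurred at every depth of the pools, but the listing bears on this. By group of pool depth, 52.4 to 66.1% of indels reached 0.3 in the WTa_like pool alone, which fixed their sign. Over those at 0.3 or more in both pools the mean delta was -0.0059, 0.0053, 0.071 and -0.07 from shallowest to deepest group. Each of these means rests on 12 to 15 sites. The 59 deepest indels, with 58 to 133 reads over both pools, averaged an index of 0.218 in the thm1_like pool (SD 0.128) and 0.380 in the WTa_like pool (SD 0.0999), and 49 of them had a delta below 0. The 63 shallowest, with 15 to 31 reads, had 0.303 (SD 0.235) and 0.406 (SD 0.227), with 37 below 0. The SD of delta was 0.163 among the deepest and 0.342 among the shallowest. By WTa depth, the 57 indels with 15 or more WTa reads had a mean delta of -0.19 (SD 0.234), and the 46 with 1 to 4 reads had -0.078 (SD 0.279). Of these, 66.7% and 50% were listed through the WTa_like pool alone.

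By gene position, 77 indels lay within the bounds of a protein-coding gene, each in a different gene, 10 in pseudogenes, 4 in other genes and 157 outside gene bounds. Those outside lay at a median of 1071 bp from the nearest protein-coding gene, and 76 of them within 1000 bp. The mean delta was -0.13 in protein-coding bounds (SD 0.286) and -0.12 outside gene bounds (SD 0.243). Of tested sites, 13 of 69 in protein-coding bounds and 19 of 136 outside were called lower, where 4.40% of all tested sites were. The WTa_like pool alone reached 0.3 at 71.4% of the indels in protein-coding bounds and 53.5% of those outside, which fixed the sign there. At 0.3 or more in both pools the mean delta was 0.034 (7 sites) and -0.015 (44 sites). The indices in both pools were lower in protein-coding bounds, at 0.211 (SD 0.185) and 0.344 (SD 0.145), than outside, at 0.269 (SD 0.190) and 0.394 (SD 0.161). These differences are smaller than the SD over sites, which does not give the error of a mean, and they were not tested. In protein-coding bounds, 3 of the 77 lengths were a multiple of 3. Named after their values were seen, they are the 21 bases of AT2G01008, a loss of CTT in RLP23, a receptor-like protein gene of plant immunity (exact adjusted p = 0.287, delta -0.25), and a loss of TCT in AT5G63640 (-0.23, exact adjusted p = 0.309). Exons are not in the gene table used, so no indel could be placed in a coding sequence, an intron or a UTR.

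Adjoining indels less than 10 kb apart formed 12 pairs. The 4 pairs with gaps of 6, 10, 16 and 337 bp each had deltas of the same sign, and the 8 pairs more than 1000 bp apart had deltas of opposite sign. Several of these deltas were close to 0 or came from sites with too few reads for the test, and the signs were not tested. The listing fixed the sign at sites listed through a single pool, such as those in ALD1 and NSP4. Some pairs also share a site, so nothing is read from the signs by distance. Around the nitrile specifier genes of chromosome 3, a loss of A in NSP1 had a delta of -0.22 (3 of 19 against 3 of 8 reads, not tested). A gain of AT 1588 bp away had 0.12 (15 of 35 against 5 of 16 reads). The loss of A in NSP4, 4625 bp further on, had -0.38, from 0 of 20 against 6 of 16 reads (exact adjusted p = 0.0375).

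Deltas of the indels were also set against the substitutions around them. For 219 indels with at least 3 C-to-T or G-to-A sites within 250 kb on either side, the mean delta of those neighbours was 0.037 and that of the indels -0.13. The indel was below its neighbours at 161 of the 219 (73.5%). This count includes the indels listed through the WTa_like pool alone, whose delta the listing fixed below 0, and nothing is read from it. Across these sites, indel and neighbour deltas had a Pearson r of 0.16 and a Spearman rho of 0.17. The same comparison for 1097 C-to-T and G-to-A sites, each left out of its own neighbourhood, gave r of 0.54 and rho of 0.53. For 242 other substitutions it gave 0.019 and 0.0091. These correlations describe sites that share libraries and neighbours and are given without a test. With 100 kb on either side the r of the indels was 0.17 (112 sites) and with 500 kb it was 0.11 (243 sites).

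**Figure D5:**
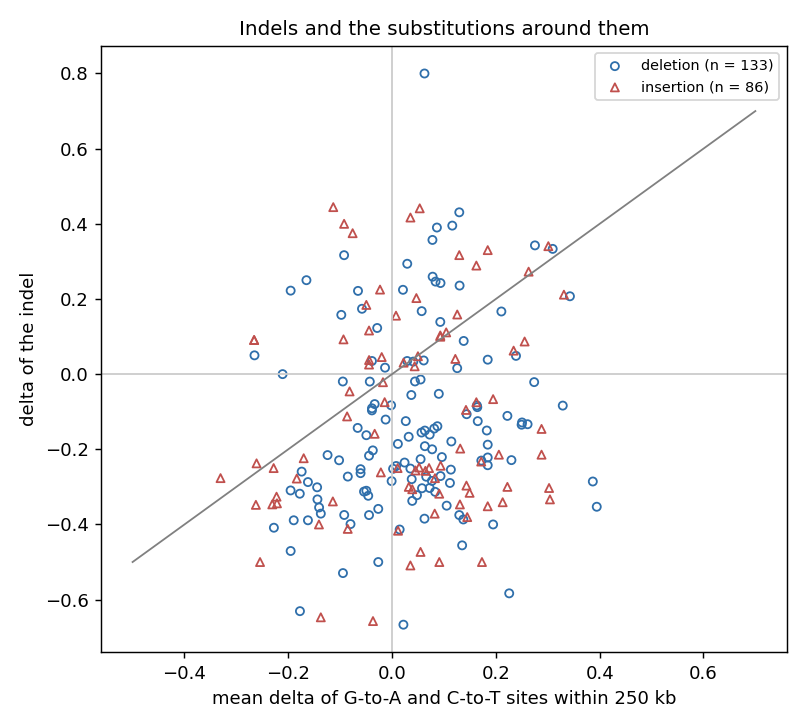
Delta of 219 indels (blue circles deletions, red triangles insertions) against the mean delta of the C-to-T and G-to-A sites within 250 kb; the diagonal marks equal values. Most points, 161 of 219, lie below the diagonal, and the cloud has little slope (Pearson r of 0.16). The listing fixed delta below 0 at indels listed through the WTa_like pool alone, so nothing is read from the count below the diagonal.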

How the data were processed

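The deposited table holds, per site, the read counts of both alleles and their total for each pool, the depth and allele of WTa, the index of each pool as a fraction and its difference, a score from -1 to 1, per the file headers. Positions are on TAIR10, as given in the submitters' processing notes; the sources used here name no aligner, caller or filter. At all 1990 sites depth equalled reference plus alternative reads, and recomputed indices matched the deposited fraction within 0.005.

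Index and delta were recomputed from counts, read from the WTa allele. The 2 pools were compared per site with Fisher's exact test (scipy 1.17.1) at 10 or more reads in both, with Benjamini-Hochberg adjustment (statsmodels 0.14.6) over 1817 sites, and tested on simulated data. Genes came from a RefSeq table of TAIR10.1, whose nuclear chromosomes are those of TAIR10, by the first base of each site. It gives bounds only, and no genome sequence was used.

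Sites named were those called higher, the 12 lower calls of smallest adjusted p, the 4 longest insertions and deletions, the 3 highest and lowest untested deltas, and the 6 deepest sites at an index of 0 or 1 in a pool of 10 or more reads. A part of the rule on promoter sequences had no table to apply to. Members and lists were chosen with earlier results of these data known. Alternatives were other read minimums, adjustments, averages, alleles of origin and subsets.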

Additional observations from a re-analysis of the deposited data

How the results depend on the processing

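The mean delta of the indels stayed below 0 in each alternative run; that of insertions turned to 0.0030 among the 23 at an index of at least 0.3 in both pools, where deletions had -0.0042 and all indels -0.0011. That choice was made after seeing the data, as were leaving out chromosomes, AT and TA changes or WTa alternative alleles. Medians were -0.19 for all indels, -0.23 for insertions and -0.17 for deletions. Changes of 1 base alone gave -0.16, with -0.18 for insertions. Without AT and TA changes the 3 means were -0.16, -0.16 and -0.16. At 10 or more WTa reads they were -0.15 for all and -0.16 for deletions. Reading changes from the reference allele gave -0.099 for all and -0.077 for insertions. Without chromosome 3 deletions had -0.15. Calls were stricter under other adjustments. Benjamini-Yekutieli left 3 lower and 0 higher indels, where it called 0.550% of all tested sites lower and 3.14% higher. Bonferroni left 0 and 0 indels, where it called 0.110% of all tested sites lower and 1.93% higher. By the unadjusted Fisher's exact test, 76 indels were lower and 12 higher at p under 0.05. Over all 1817 tested sites 209 were lower and 295 higher. With at least 7 or 15 reads 2 indels were higher each time, where 7.64% and 9.25% of all tested sites were higher. The site in MYB46 passed at 7 reads (exact adjusted p = 0.0131). Read from the reference allele 5 indels were higher, a reading for which no share over all sites was counted. With 0.3 in both pools 1 was lower and 0 higher. Without chromosome 1, 21 were lower, and without chromosome 5, 0 were higher. These subsets kept the calls of the main test, lower at 4.40% and higher at 8.20% of all tested sites. Read from the reference allele, delta was -0.24 in AT2G08986, -0.21 at 12969249 of chromosome 3 and -0.80 in MYB46. The cause of these shifts was not tested. No paired analysis was possible because each group is 1 library. About 20 reads per pool leave small differences at a site undetectable.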
